A study of Mus musculus with 6 samples.

Results

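The endoplasmic reticulum (ER) chaperones and the XBP1 branch of the unfolded protein response were described here through 10 mouse genes, Hspa5, Hsp90b1, Pdia4, Pdia6, Calr, Canx, Xbp1, Dnajb9, Sdf2l1 and Herpud1, of the 55487 genes in the deposited table. They were chosen by symbol, as ER chaperones and as targets of the transcription factors ATF6 and XBP1, and each symbol matched 1 gene identifier. RNA was sequenced from 6 libraries of macrophages. They came from TpMo-derived macrophages (3 libraries), set against Ly6Chi-derived macrophages (3 libraries), both grown for 7 days from sorted mouse bone marrow cells, TpMos in the first case and mature Ly6Chi monocytes in the second. Both kinds of culture held CSF-1, the growth factor of macrophages, at a concentration that is not given per sample in the sources used here, and strain, age, sex and genotype are likewise not given. The libraries held 23765773 to 33042094 counts on genes.

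Proteins that enter the secretory pathway fold in the ER with the help of chaperones, of enzymes that form disulfide bonds and of lectins that hold sugar-bearing chains. When unfolded proteins build up, 3 sensors in the ER membrane respond. ATF6 is cut to release a transcription factor that raises chaperone genes, IRE1 splices the Xbp1 mRNA so that an active XBP1 protein is made, and PERK slows translation and favours ATF4. ATF4 also answers a lack of amino acids, through the kinase GCN2, so its targets can rise without the ER chaperones. Macrophages secrete proteases, cytokines and complement, and so carry a sizeable ER.

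Many chaperone promoters carry the ER stress element, a box bound by the factor NF-Y followed at a fixed distance by a box bound by ATF6 or XBP1. The element was searched as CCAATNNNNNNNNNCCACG on both strands of the RefSeq promoter windows (build GRCm38.p6), which run from 250 bases before a gene's start to 50 bases after it. All 10 genes had a window, and 5 of them held the element, against 37 of 27025 genes with a window, or 0.137%. The shorter ER stress element II (ATTGG, then any 1 base, then CCACG) stood in the window of Herpud1 and in 0.0365% of all 32851 windows. The 10 genes were chosen as ER chaperones and as targets of ATF6 and XBP1, so their share with the element depends on that choice. The matches in the genes that held either form are shown. They are printed in the direction in which the element reads as written above, with 10 bases on either side, and capitals mark the element.
Hspa5, chr2:34772015-34772053, plus strand: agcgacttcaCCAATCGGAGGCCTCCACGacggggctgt
Hsp90b1 upstream copy, chr10:86705628-86705666, minus strand: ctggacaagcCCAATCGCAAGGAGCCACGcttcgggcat
Hsp90b1 downstream copy, chr10:86705523-86705561, plus strand: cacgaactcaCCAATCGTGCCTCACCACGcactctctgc
Pdia6, chr12:17266481-17266519, plus strand: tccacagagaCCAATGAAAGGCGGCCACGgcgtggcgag
Calr, chr8:84847065-84847103, plus strand: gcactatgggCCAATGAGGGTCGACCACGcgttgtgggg
Canx, chr11:50325790-50325828, minus strand: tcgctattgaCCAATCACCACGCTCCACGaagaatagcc
Herpud1 element II, chr8:94386367-94386397, plus strand: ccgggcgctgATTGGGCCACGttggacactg

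The element of Hspa5 lay at positions -65 to -47 from the start site, and the others between -212 and -42. In Calr and in the downstream copy of Hsp90b1 it ran against the direction of the gene. Neither form was found in the windows of Pdia4, Xbp1, Dnajb9 or Sdf2l1, which says only that these letters are not there. A CCAAT box alone, which is also part of the element, stood in the windows of 9 of the 10 genes and in 37.4% of all windows. The core of the unfolded protein response element that XBP1 binds (TGACGTGG or TGACGTGA) stood in the window of Hspa5 alone among the 10 and in 1.12% of all windows. The core of the element that ATF4 binds with its partners (TGATGNAA) stood in the window of Herpud1 alone among the 10 and in 3.97% of all windows. The whole windows of Hspa5 and Herpud1 are given with the element in capitals. That of Dnajb9 follows as a window with no match to either form of the element.
Hspa5, chr2:34771840-34772139, plus strand: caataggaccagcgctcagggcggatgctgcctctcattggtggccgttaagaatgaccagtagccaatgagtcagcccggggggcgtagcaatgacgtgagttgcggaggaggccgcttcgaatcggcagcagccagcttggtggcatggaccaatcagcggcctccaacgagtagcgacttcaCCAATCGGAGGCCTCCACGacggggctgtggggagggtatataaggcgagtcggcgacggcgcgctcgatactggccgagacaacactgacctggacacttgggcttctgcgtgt
Herpud1, chr8:94386179-94386478, plus strand: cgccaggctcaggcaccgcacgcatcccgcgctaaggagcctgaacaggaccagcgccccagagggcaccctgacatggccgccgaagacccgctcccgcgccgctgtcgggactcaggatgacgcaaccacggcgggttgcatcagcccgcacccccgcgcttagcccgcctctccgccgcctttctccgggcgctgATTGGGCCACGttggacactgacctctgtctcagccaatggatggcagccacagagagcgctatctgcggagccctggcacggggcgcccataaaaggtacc
Dnajb9, chr12:44210019-44210318, minus strand: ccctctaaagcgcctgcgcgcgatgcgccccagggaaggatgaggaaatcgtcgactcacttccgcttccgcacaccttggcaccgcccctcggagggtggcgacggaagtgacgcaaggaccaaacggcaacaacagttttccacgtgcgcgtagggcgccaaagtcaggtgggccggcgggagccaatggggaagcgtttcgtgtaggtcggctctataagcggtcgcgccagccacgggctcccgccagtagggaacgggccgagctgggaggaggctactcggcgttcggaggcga

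ER chaperone transcripts were moderately higher in TpMo-derived macrophages. Of the 10 genes, 8 rose, 0 fell and 2 did not pass (edgeR quasi-likelihood test, adjusted p under 0.05 by the Benjamini-Hochberg method over 13140 genes). Across all genes tested, 6.54% were higher and 5.79% lower by the same rule. At an unadjusted p under 0.05, and with DESeq2 or limma-voom, the count that fell was also 0. Over all 13140 genes tested, 1589 were lower at that unadjusted p, so a count of 0 among 10 genes says little. The median log2 fold change of the 10 genes, TpMo-derived over Ly6Chi-derived, was 0.37, against 0.0054 over all genes tested, and the range ran from -0.04 for Dnajb9 to 0.86 for Herpud1. In these 8 genes the groups did not overlap, which held in that direction for 15.3% of all genes tested. Together the 10 genes took 0.576, 0.581 and 0.568% of the counts in TpMo-derived libraries, against 0.447, 0.442 and 0.456% in Ly6Chi-derived libraries. In bulk samples, a change in the make-up of the cells and a change in RNA per cell cannot be told apart.

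**Figure D1:**
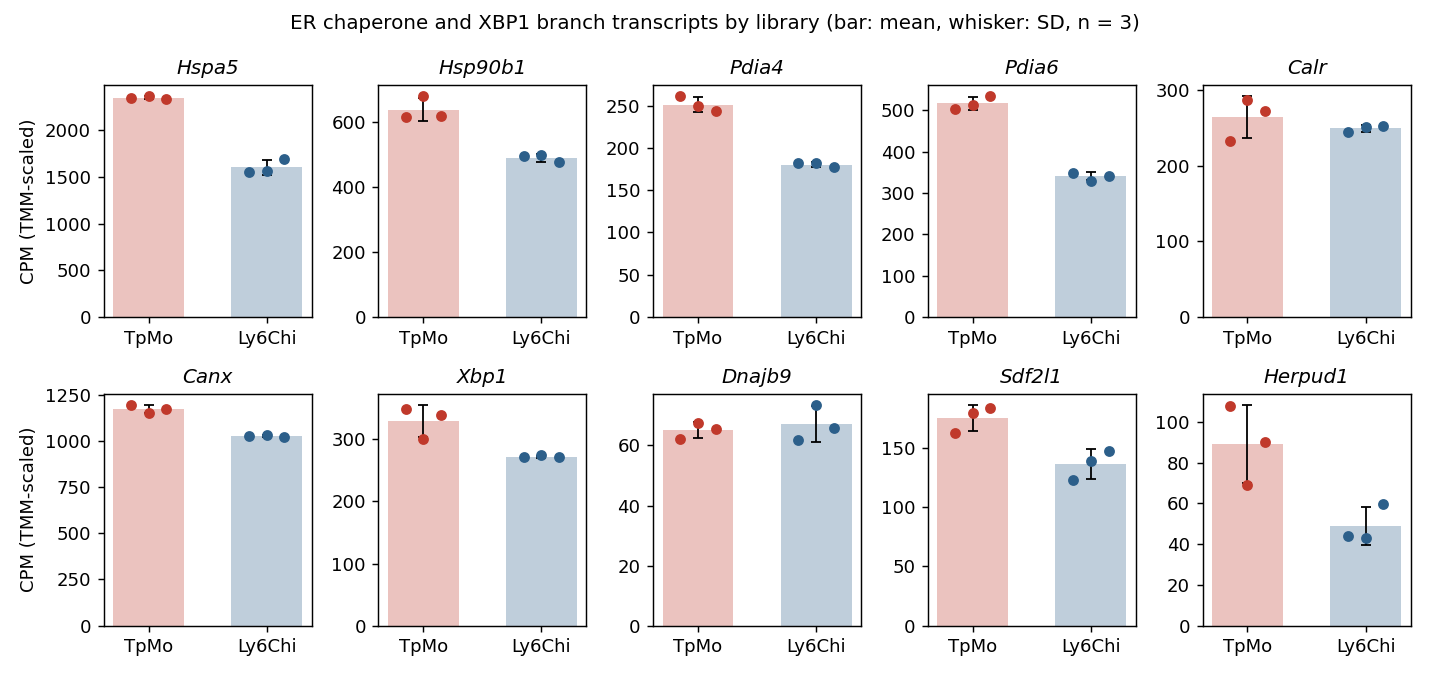
Each panel plots one transcript in CPM scaled by TMM, with 1 point per library, bars for the mean and whiskers for the SD of 3 libraries, TpMo-derived at the left and Ly6Chi-derived at the right. The points of the groups are apart in 8 panels and overlap for Calr and Dnajb9.

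Hspa5 encodes BiP, the main ER chaperone of the HSP70 family, which also holds the stress sensors inactive. It lies on chromosome 2, from 34771970 to 34777547 on GRCm38 (ENSMUSG00000026864.13). TpMo-derived libraries held 2348, 2366 and 2331 CPM of Hspa5 (counts scaled to library size by TMM), against 1556, 1559 and 1694 CPM in Ly6Chi-derived libraries. The TpMo-derived values were close to each other (coefficient of variation 0.749%) and all above the highest Ly6Chi-derived value. The log2 fold change was 0.55 ± 0.05 (SE, n = 3 per group, edgeR adjusted p = 9.69e-05), or 1.46-fold. Hsp90b1 encodes GRP94, the ER member of the HSP90 family, which folds Toll-like receptors and integrins. It stood at 617, 681 and 620 CPM in TpMo-derived libraries, against 496, 499 and 477 CPM in Ly6Chi-derived libraries, and the groups did not overlap. Its log2 fold change was 0.38 ± 0.06 (SE, edgeR adjusted p = 0.00302). It lies on chromosome 10, from 86690209 to 86705509, and of its 4032 exon bases, 632 are shared with other annotated genes, where reads on both were left uncounted. Sdf2l1, a partner of BiP and its co-chaperones (chromosome 16, from 17130138 to 17132383), stood at 163, 179 and 184 CPM in TpMo-derived libraries, against 123, 139 and 147 CPM in Ly6Chi-derived libraries. The gap between the groups was smaller than the range within either of them, and the log2 fold change was 0.36 ± 0.09 (SE, edgeR adjusted p = 0.0305). Dnajb9, or ERdj4, is a J-domain partner of BiP that restrains IRE1 and is a known target of XBP1 (chromosome 12, from 44205559 to 44210326). It stood at 62.3, 67.5 and 65.4 CPM in TpMo-derived libraries, against 61.8, 73.6 and 65.7 CPM in Ly6Chi-derived libraries. The groups of Dnajb9 overlapped, and its log2 fold change was -0.04 ± 0.11 (SE, edgeR adjusted p = 0.873).

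Pdia4 and Pdia6 encode disulfide isomerases of the ER, ERp72 and P5, and P5 also turns off active IRE1 and PERK. Pdia4 lies on chromosome 6, from 47796141 to 47813430, and Pdia6 on chromosome 12, from 17266545 to 17284770. Pdia6 stood at 503, 512 and 535 CPM in TpMo-derived libraries, against 349, 330 and 342 CPM in Ly6Chi-derived libraries. The groups of Pdia6 lay far apart for their spread, and its log2 fold change was 0.60 ± 0.06 (SE, edgeR adjusted p = 1.45e-04), or 1.52-fold. Pdia4 stood at 262, 249 and 244 CPM in TpMo-derived libraries, against 182, 182 and 177 CPM in Ly6Chi-derived libraries. It was higher in all 3 TpMo-derived libraries, with a log2 fold change of 0.48 ± 0.07 (SE, edgeR adjusted p = 0.00143).

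Canx and Calr encode calnexin and calreticulin, a membrane-bound and a soluble lectin that retain sugar-bearing proteins until they are folded. Canx lies on chromosome 11, from 50293961 to 50325673, and Calr on chromosome 8, from 84841850 to 84846934. Canx stood at 1196, 1149 and 1174 CPM in TpMo-derived libraries, against 1027, 1030 and 1022 CPM in Ly6Chi-derived libraries. The Canx difference was the smallest among the 8 genes that rose, at a log2 fold change of 0.19 ± 0.05 (SE, edgeR adjusted p = 0.0278). Calr stood at 233, 287 and 273 CPM in TpMo-derived libraries, against 244, 251 and 253 CPM in Ly6Chi-derived libraries. TpMo-derived replicate 1 held the lowest Calr value of all 6 libraries and the other two TpMo-derived libraries the highest, so the groups overlapped. Calr did not pass, with a log2 fold change of 0.08 ± 0.08 (SE, edgeR adjusted p = 0.635), although its window holds the ER stress element.

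Xbp1 encodes the transcription factor that IRE1 activates, and it is itself a target of ATF6. It lies on chromosome 11, from 5520659 to 5525893. Xbp1 stood at 349, 300 and 339 CPM in TpMo-derived libraries, against 271, 274 and 271 CPM in Ly6Chi-derived libraries. All 3 TpMo-derived values lay above the Ly6Chi-derived ones, with a log2 fold change of 0.28 ± 0.07 (SE, edgeR adjusted p = 0.0345). The counts are per gene and do not tell the spliced from the unspliced mRNA, so the splicing by IRE1 was not measured. The forms differ by the 26 bases in capitals, which are present in each of the 3 protein-coding Xbp1 transcripts of GENCODE M21 and which IRE1 removes.
Xbp1 transcript, chromosome 11: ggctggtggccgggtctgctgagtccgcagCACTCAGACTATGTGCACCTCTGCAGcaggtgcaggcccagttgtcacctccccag
Herpud1 encodes an ER membrane protein that assembles the degradation machinery, and both ATF6 and ATF4 are known to raise it (chromosome 8, from 94386438 to 94395377). Its values were the least even of the 10 genes, at 108, 69.1 and 90.3 CPM in TpMo-derived libraries, against 43.7, 43.2 and 59.8 CPM in Ly6Chi-derived libraries (coefficients of variation 21.7 and 19.4%). The groups did not overlap, and Herpud1 had the largest fold change of the 10 genes, with a log2 fold change of 0.86 ± 0.18 (SE, edgeR adjusted p = 0.0121), or 1.82-fold.

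Levels between genes were compared as TPM, which divide counts by exon length before they are scaled to the library. Hspa5 was the most abundant of the 10 genes in both groups, at 1838 ± 43.6 TPM in TpMo-derived and 1312 ± 50.6 TPM in Ly6Chi-derived macrophages (SD, n = 3 each). Canx followed, at 827 ± 20.4 TPM in TpMo-derived and 757 ± 19.2 TPM in Ly6Chi-derived macrophages. Below it came Hsp90b1 and Sdf2l1, whose ranges overlapped in both groups, and then Pdia6. TPM divide by all 4032 exon bases of Hsp90b1, although reads on the 632 bases shared with other genes were left uncounted. The TPM of Hsp90b1 may therefore be too low, and its overlap with Sdf2l1 is uncertain. Pdia4, Xbp1 and Calr lay close together. In TpMo-derived macrophages the range of Xbp1 overlapped those of Pdia4 and Calr, whereas in Ly6Chi-derived macrophages Calr, Xbp1 and Pdia4 followed each other without overlap. Herpud1 and Dnajb9 were lowest. Herpud1 stood at 126 ± 27.5 TPM and Dnajb9 at 84.5 ± 3.66 TPM in TpMo-derived macrophages, with no overlap. In Ly6Chi-derived macrophages they stood at 72.5 ± 13.0 and 91.0 ± 6.86 TPM, and their ranges overlapped.

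**Figure D2:**
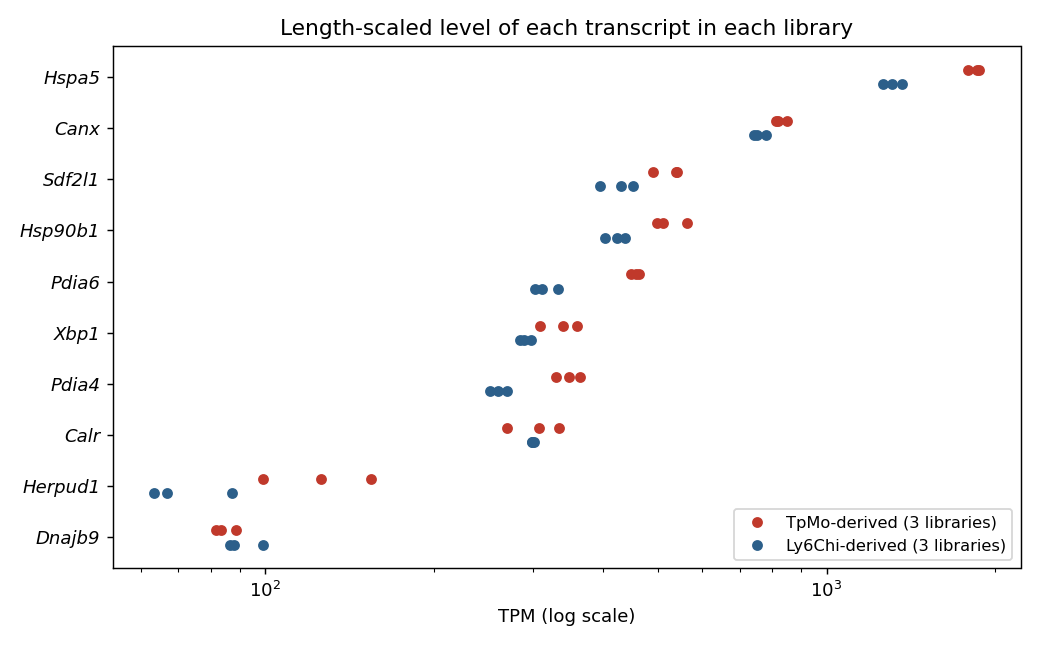
The plot gives the level of each of the 10 transcripts in TPM on a log axis, with 1 point per library, TpMo-derived above Ly6Chi-derived in each row, and rows ordered by the mean over all 6 libraries. Hspa5 stands at the top in every library, and Herpud1 and Dnajb9 at the bottom.

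The log2 fold changes kept their sign for the 8 genes that rose with any 1 library left out, in fits of fewer samples that called 531 to 750 higher genes in all, against 859 with all 6 libraries. Hspa5, Hsp90b1, Pdia4 and Pdia6 were called with any 1 of the 6 libraries left out, with edgeR adjusted p up to 0.00184, 0.0221, 0.0120 and 0.00218. Canx and Xbp1 were called only without TpMo-derived replicate 2 (edgeR adjusted p = 0.0340 and 0.0125). Without each of the others their adjusted p reached up to 0.112 and 0.120, and with library sizes alone it was 0.0891 and 0.0692. Sdf2l1 was not called without TpMo-derived replicates 2 or 3 or Ly6Chi-derived replicates 1 or 2 (edgeR adjusted p = 0.0766, 0.111, 0.116 and 0.0951). Herpud1 was not called without TpMo-derived replicates 1 or 3 or Ly6Chi-derived replicates 1 or 2 (edgeR adjusted p = 0.0527, 0.0529, 0.0701 and 0.0679). With 1 library left out, the log2 fold change ran from 0.18 to 0.21 for Canx, from 0.23 to 0.34 for Xbp1, from 0.28 to 0.42 for Sdf2l1 and from 0.70 to 1.03 for Herpud1. Leaving out TpMo-derived replicates 1, 2 and 3 in turn gave 5, 7 and 4 genes that rose, and leaving out those of the Ly6Chi-derived group gave 4, 4 and 6. No TpMo-derived library was the highest or lowest of its group throughout: replicates 1, 2 and 3 were highest for 4, 4 and 2 genes. In a test against a 1.5-fold change, 0 of the 10 were called.

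**Figure D3:**
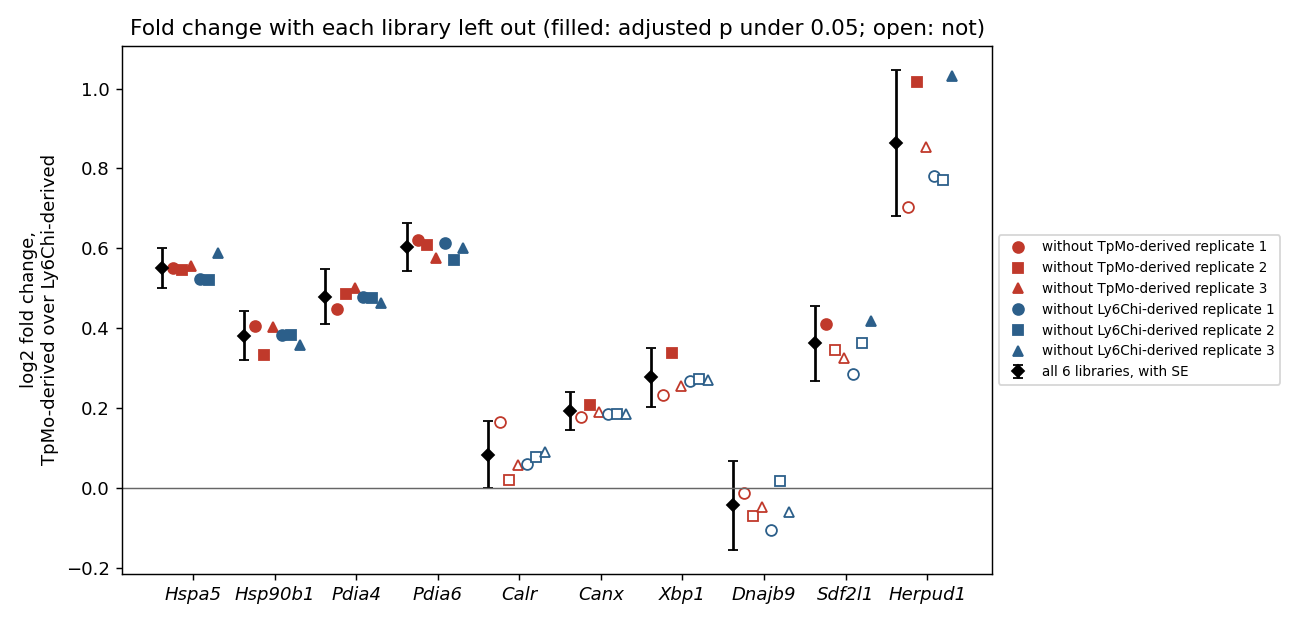
The plot gives the log2 fold change, TpMo-derived over Ly6Chi-derived, of each of the 10 genes in all 6 libraries (black, with SE) and with 1 library left out, where filled points have an adjusted p under 0.05. The 6 points of Hspa5, Hsp90b1, Pdia4 and Pdia6 are filled, and those of Calr and Dnajb9 are open.

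Among 40 further genes of ER folding and translocation, all tested, 8 rose and 1 fell, with a median log2 fold change of 0.13. The disulfide isomerases Pdia3 and P4hb, the most abundant of the list per length, rose, as did Txndc5, Creld2, Ssr1 and the BiP-related chaperone Hyou1. P4hb stood at 908, 930 and 899 CPM in TpMo-derived libraries, against 750, 679 and 742 CPM in Ly6Chi-derived libraries, a log2 fold change of 0.33 ± 0.06 (SE, edgeR adjusted p = 0.00446). Creld2, whose window also holds the ER stress element, stood at 124 ± 13.7 CPM in TpMo-derived and 81.2 ± 9.95 CPM in Ly6Chi-derived macrophages (SD, n = 3 each), a log2 fold change of 0.61. The secreted stress protein Manf and the BiP partner Dnajc3 did not pass, with log2 fold changes of 0.48 and 0.08. Of the 30 genes of this list with a window, 2 held the element, Creld2 and Dnajc3. The gene that fell, the disulfide reductase Dnajc10, was named after its values were seen, and stood at 80.7 ± 2.45 CPM in TpMo-derived and 116 ± 15.4 CPM in Ly6Chi-derived macrophages. Leaving out TpMo-derived replicates 1, 2 and 3 in turn gave 9, 5 and 4 genes of this list that rose, and leaving out those of the Ly6Chi-derived group gave 4, 3 and 5. Without TpMo-derived replicate 3, Dnajc10 was not called either and the count that fell was 0. The calls of Hyou1, Pdia3 and Txndc5 were among those lost without Ly6Chi-derived replicate 2 (edgeR adjusted p = 0.0849, 0.0772 and 0.0509). Hyou1 was also not called without TpMo-derived replicates 2 or 3 or Ly6Chi-derived replicates 1 or 3 (edgeR adjusted p = 0.0918, 0.148, 0.128 and 0.122), and Pdia3 was lost when either TpMo-derived replicate 3 or the first Ly6Chi-derived library was left out (edgeR adjusted p = 0.0542 and 0.0612).

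ER-associated degradation retrotranslocates misfolded proteins to the proteasome, and several of its genes are targets of XBP1. Its genes gave 0 calls in either direction among 20 tested, with a median log2 fold change of 0.04. Over all genes tested, 6.54% were higher and 5.79% lower, so 0 calls among 20 genes say little. At an unadjusted p under 0.05, 5 genes of the list were higher and 2 lower, beside 1619 higher and 1589 lower of all 13140 genes tested. DESeq2 called 3 higher and 1 lower, and limma-voom called 0. Without TpMo-derived replicate 2, edgeR called 1 higher. The adaptor Sel1l stood at 290 ± 7.67 CPM in TpMo-derived and 285 ± 5.19 CPM in Ly6Chi-derived macrophages (SD, n = 3 each). The mannosidase-like Edem1 and the ubiquitin ligase Syvn1, both XBP1 targets, had log2 fold changes of 0.18 and 0.37 and did not pass (edgeR adjusted p = 0.452 and 0.115), although DESeq2 called Syvn1 (adjusted p = 0.0488). The ER stress element stood in the windows of 2 of 16 genes of this list, Syvn1 and Derl3. Neither passed with edgeR, and Derl3 was named for the element. Of the sensors, Ern1, which encodes IRE1, stood at 25.2 ± 7.26 CPM in TpMo-derived and 23.7 ± 0.534 CPM in Ly6Chi-derived macrophages. Atf6 stood at 132 ± 15.2 CPM in TpMo-derived and 102 ± 14.3 CPM in Ly6Chi-derived macrophages. Eif2ak3, which encodes PERK, stood at 10.7 ± 4.73 CPM in TpMo-derived and 8.50 ± 2.11 CPM in Ly6Chi-derived macrophages. None of these 3 passed with edgeR (adjusted p = 0.864, 0.0897 and 0.662). Atf6 was called with DESeq2 (adjusted p = 0.0422), without a count filter (adjusted p = 0.0376) and without Ly6Chi-derived replicate 1 (edgeR adjusted p = 0.0489). Of 15 sensors and regulators tested, of 16 listed, 2 rose and 1 fell, with a median of 0.09. Beside the 6.54% higher and 5.79% lower over all genes tested, such small counts say little. The phosphatase subunit Ppp1r15b and the ER membrane protein Tmbim6 rose, with log2 fold changes of 0.43 and 0.21. Both calls were lost with library sizes alone, and with any 1 library left out except TpMo-derived replicate 1 for Ppp1r15b and TpMo-derived replicate 2 for Tmbim6, with edgeR adjusted p up to 0.132 and 0.164. The list then held 0 genes that rose with library sizes alone, and also when TpMo-derived replicate 3, Ly6Chi-derived replicate 2 or Ly6Chi-derived replicate 3 was the one left out. The transcription factor Creb3l1 fell, with -0.80.

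Changes were larger in the list named here the amino acid response. It includes Atf4 and targets of ATF4, which PERK can also raise, and which input lay behind the values was not tested. Of 29 tested, of 32 listed, 19 rose and 1, the cystine transporter Slc7a11, fell, with a median log2 fold change of 1.00. Slc7a11 was named after its values were seen. Atf4 stood at 183, 215 and 203 CPM in TpMo-derived libraries, against 109, 88.6 and 102 CPM in Ly6Chi-derived libraries, a log2 fold change of 1.00 ± 0.10 (SE, edgeR adjusted p = 1.86e-04). The asparagine synthetase Asns, at a log2 fold change of 1.97, and the folate enzyme Mthfd2, at 1.42, rose by more than any of the 10 ER genes. Ddit3, which encodes the ER stress factor CHOP and is a target of ATF4, rose to 28.9 ± 1.35 CPM in TpMo-derived macrophages, against 16.1 ± 2.42 CPM in Ly6Chi-derived macrophages, a log2 fold change of 0.84 that was not called without TpMo-derived replicate 3 (edgeR adjusted p = 0.0522). The core that ATF4 binds stood in the windows of 8 of 27 genes of this list, or 29.6%, against 4.51% of all genes with a window. The list was chosen to include targets of ATF4, so its share with the core depends on that choice. All 8 are named here for the core. Asns, Chac1, Nupr1 and Trib3 rose, Atf3, Pycr1 and Vldlr did not pass, and Slc7a11 fell. Hspa5 and Asns differed in level as well: per length, Asns reached 340 ± 15.6 TPM in TpMo-derived and 90.9 ± 14.1 TPM in Ly6Chi-derived macrophages, below Hspa5 in both.

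Cytosolic chaperones, which serve proteins outside the ER, were also higher in part. The list as counted also holds the mitochondrial chaperones Hspd1, which rose, and Hspe1, which did not pass, both named for their site. Of 18 tested, of 20 listed, 8 rose and 0 fell, with a median log2 fold change of 0.29. At an unadjusted p under 0.05 the list held 1 lower gene, beside 1589 of all 13140 genes tested, and DESeq2 and limma-voom called 0 lower. Hsp90ab1 stood at 1069, 1136 and 1147 CPM in TpMo-derived libraries, against 768, 735 and 794 CPM in Ly6Chi-derived libraries, a log2 fold change of 0.55 ± 0.06 (SE, edgeR adjusted p = 1.92e-04), close in size to that of Hspa5. Hspa8 rose with a log2 fold change of 0.27, whereas Hsp90aa1 did not pass, at 0.14. These counts were read beside the same background of 6.54% higher genes, and the difference between the lists was not tested.

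**Figure D4:**
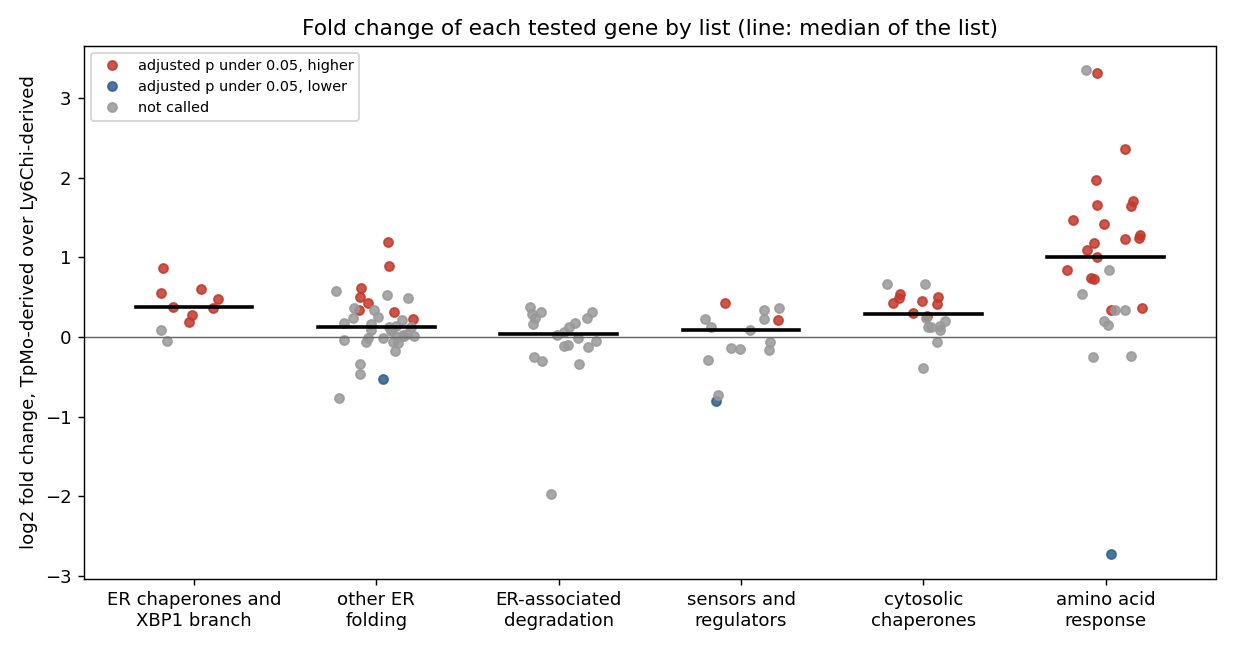
Each point is the log2 fold change, TpMo-derived over Ly6Chi-derived, of a tested gene, placed by list, with red for higher and blue for lower at an adjusted p under 0.05, grey for not called and a black line for the median. The medians are 0.37 for the ER chaperones and XBP1 branch, 0.04 for ER-associated degradation and 1.00 for the amino acid response.

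All genes with the ER stress element in a window were set beside these lists. Outside the 10 genes, 12 such genes were tested. Of these, 9 had a positive log2 fold change, with a median of 0.24. Among them, 2 rose, Creld2 and the adenylyl cyclase Adcy3, the second of which was named after its values were seen. Acacb, Gm6566, Derl3 and Xlr3a, named for their low level, had means of at most 2.01 CPM in either group. Their SE ran from 0.879 to 1.48, so the signs of Acacb and Gm6566 (positive) and of Derl3 and Xlr3a (negative) say little. Creld2, Dnajc3, Syvn1 and Derl3 also belong to the lists above. Over all 13140 genes tested, 6638 had a positive log2 fold change and 6.54% rose. For the ER stress element II, 8 genes outside the 10 were tested. Of these, 4 had a positive log2 fold change, with a median of -0.12. None rose and 1 fell, Nucb1, at -0.37, which was also named after its values were seen. Across the 6 libraries, the gene most like the mean profile of the 10 ER genes was Dtymk, with Pearson's r = 0.998, followed by C1qbp, Rnf213, Swap70 and Gm45640. Of 9226 genes compared, 683 had an r above 0.9, and the 6 points share the split into groups, so these values are descriptions.

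The libraries carried the defining genes of macrophages. The 10 markers summed to 34913 to 36779 CPM in TpMo-derived and 29913 to 32541 CPM in Ly6Chi-derived libraries, on the scale of library totals. Plasma cells are known for very high ER chaperone levels. Their defining genes Jchain, Igkc and Mzb1, and the B cell gene Cd79a, were at 0 in every library, and the list of 10 plasma and B cell markers, of which 3 were tested, summed to 29.8 to 38.9 CPM in TpMo-derived and 51.9 to 59.0 CPM in Ly6Chi-derived libraries. Most of that sum was Sdc1, which fell to 25.9 ± 3.34 CPM in TpMo-derived macrophages, against 50.5 ± 1.77 CPM in Ly6Chi-derived macrophages (SD, n = 3 each, edgeR adjusted p = 0.00195). The other two tested markers had higher means in TpMo-derived macrophages and did not pass. Ighm stood at 6.55 ± 2.78 CPM in TpMo-derived and 1.82 ± 1.63 CPM in Ly6Chi-derived macrophages, without overlap (edgeR adjusted p = 0.113). Cd79b stood at 3.42 ± 1.13 CPM in TpMo-derived and 2.20 ± 1.79 CPM in Ly6Chi-derived macrophages, with overlap (edgeR adjusted p = 0.611). The part of B-lineage RNA in the chaperone results was not tested. Of 7 markers of plasmacytoid dendritic cells, another secretory cell type, Siglech, Ly6d and Klk1 were at 0 in every library, while the summed level was 165 to 203 CPM in TpMo-derived and 87.8 to 93.3 CPM in Ly6Chi-derived libraries, with most of the difference in the interferon-induced Bst2. The part of such cells in the chaperone results was not tested. The 10 neutrophil and precursor markers summed to 1.09 to 2.73 CPM in TpMo-derived and 0.224 to 1.51 CPM in Ly6Chi-derived libraries, the 6 markers of conventional dendritic cells to 0.182 to 0.773 CPM in TpMo-derived and 0.407 to 0.783 CPM in Ly6Chi-derived libraries, and the 7 stromal markers to 0 in every library.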

How the data were processed

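For each of the 6 libraries the authors deposited raw counts over genes. Per the file header, featureCounts 1.6.3 counted reads over exons of GENCODE M22, and its command line sets none of the options for pairs, strandedness or multiple hits, so that mates count on their own, strand is ignored and a read on several genes is dropped. STAR and GRCm38 are named in the submitters' processing notes, without a version for the aligner. Symbols came from a table of GENCODE identifiers, which matched 55394 of 55487 rows.

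The test was that of edgeR 4.0.16, run in R 4.3.3 (filterByExpr at 10 counts per sample and 15 in total, TMM, robust quasi-likelihood test, no covariate). The SE of a log2 fold change is its absolute value divided by the square root of the edgeR F statistic. That statistic uses a variance moderated across genes, so the SE is not the spread of the libraries of that gene alone. CPM are TMM-scaled unless stated. TPM used the exon lengths of the deposited table and all its genes. A floor of 3 counts corresponds to 0.0908 to 0.126 CPM and covers counting error only. DESeq2 1.42.0 and limma 3.58.1 served as alternatives, and the scripts were checked on simulated counts. Replicates were numbered in accession order. The labels do not tie them to different animals or cultures: each p-value therefore reflects the spread of these 6 libraries alone, part of which may be technical. The genes, lists and motifs were chosen with earlier results of these data known. Named were all 10 genes, up to 4 called genes with the smallest p and 2 genes with the highest TPM in each other list, and a fixed set of pathway genes. Others are marked where named.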

Additional observations from a re-analysis of the deposited data

How the results depend on the processing

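Of the 10 ER genes, 8 were called higher under edgeR, and likewise with the size factors of DESeq2, limma-voom, the DESeq2 Wald test, a filter of 5 CPM in 3 samples and halved counts. The count was 7 without a count filter and 6 with library sizes alone. In the test against a 1.5-fold change it was 0, and the same test gave 191 higher and 126 lower genes in all, 0 higher and 0 lower among the other ER folding genes, 0 higher and 0 lower among the sensors and regulators, 0 higher among the cytosolic chaperones, and 14 higher and 1 lower among the amino acid response genes. With library sizes alone the sensors and regulators gave 0 higher and the ER-associated degradation genes 1 lower. The DESeq2 Wald test gave 1204 higher and 1175 lower genes in all, 12 higher among the other ER folding genes, 3 higher and 1 lower among the ER-associated degradation genes, and 3 higher and 2 lower among the sensors and regulators. ER-associated degradation gave 1 higher without a count filter, with the filter of 5 CPM in 3 samples and with halved counts. The other ER folding genes gave 2 lower with library sizes alone, no count filter, the filter of 5 CPM in 3 samples, DESeq2, limma-voom and halved counts.

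With 1 library left out, where fewer samples enter the fit, the counts ranged from 4 to 7 higher among the 10 ER genes, from 531 to 750 higher and 445 to 742 lower over all genes, from 3 to 9 higher and 0 to 1 lower among the other ER folding genes, from 0 to 1 higher among the ER-associated degradation genes and from 0 to 1 higher among the sensors and regulators. Signs were compared for the genes named by the rule above, not for all genes. Among these named genes, signs turned in 4 cases, all of genes that were not called. With 1 library left out, the log2 fold change of Dnajb9 ran from -0.105 to 0.018 (the highest without Ly6Chi-derived replicate 2), that of Ern1 from -0.17 to 0.23 (the lowest without TpMo-derived replicate 2) and that of Rtcb from -0.15 to 0.011 (the highest without TpMo-derived replicate 2). Sel1l stood at -0.025 with library sizes alone. The cause was not tested. No paired analysis was possible because the labels give no replicate numbers.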
